A study of Mus musculus with 18 samples.

Results

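A set of 8 long noncoding RNAs (lncRNAs), of the 55153 genes in the RNA-seq tables, was followed by name through the transcriptome and the ribosome footprints of the mouse cerebral cortex at embryonic day 15.5. There were 6, *Gas5*, *Snhg1*, *Snhg6*, *Snhg8*, *Snhg11* and *Snhg12*, that host small nucleolar RNAs (snoRNAs), and 2, *Malat1* and *Neat1*, that stay in the nucleus. They were chosen by symbol and class, and all 8 were annotated as lncRNA and passed the filter on low counts in every comparison, in both assays.

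The cortex of wild-type controls (Ctrl) was compared with that of mice carrying floxed *Fto* alleles and Emx1-Cre (F-cKO) and of mice carrying floxed *Mettl3* alleles and Emx1-Cre (M-cKO). The background was C57/BL6 crossed with 129, and the wild-type label does not say whether controls carried a floxed allele or Cre. Fto removes the RNA mark N6-methyladenosine (m6A) and Mettl3 is the catalytic subunit of the enzyme complex that writes it. Cre was driven by the *Emx1* promoter, which acts in cortical progenitors and the cells they give rise to, so that vessels, blood, microglia and interneurons that migrate in from the ganglionic eminence keep the floxed alleles intact. Each group had 3 biological repeats in RNA-seq and 3 in ribosome profiling (Ribo-seq), 18 libraries in all. Ribo-seq here sequenced the RNA fragments left after RNase I digestion of the tissue lysate, which are called footprints below. In bulk tissue such as this, fewer cells of a type and less RNA per cell cannot be told apart.

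A snoRNA host gene carries snoRNAs in its introns. The snoRNAs are cut out after splicing and guide the chemical modification of ribosomal RNA or other small RNAs, while the spliced exons of many hosts have no long open reading frame, are bound by ribosomes and are removed by nonsense-mediated decay. Several hosts, *Gas5* above all, start with a run of pyrimidines, the 5′ terminal oligopyrimidine (5′ TOP) element that also begins ribosomal protein mRNAs. *Malat1* is one of the most abundant nuclear RNAs, lies in nuclear speckles, where splicing factors are stored, and is a well-known carrier of m6A. *Neat1* is the scaffold of paraspeckles, which hold Nono, Sfpq and related proteins.

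The bases at the start sites are shown because the 5′ TOP element is the sequence feature that these hosts are best known to share. The windows are from RefSeq on GRCm38.p6, with 15 bases before the first transcribed base and 15 bases from it onwards, written 5′ to 3′ on the strand of the gene. Capitals mark the unbroken run of C or T that begins at the first transcribed base.
Gas5, site 1, chr1:161034586-161034615, plus strand: agggggcgggcccgcgagctcgacagcccg
Gas5, site 2, chr1:161035151-161035180, plus strand: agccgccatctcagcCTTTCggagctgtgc
Snhg1, chr19:8723472-8723501, plus strand: gttgttcttgtcggcCTCatttttccttgt
Snhg8, chr3:123508322-123508351, minus strand: gcaccgttcagaagtCTCTTTggctgcgat
Snhg11, chr2:158375698-158375727, plus strand: cgcactgcggcactcactcacgcactcagc
Snhg12, chr4:132308663-132308692, plus strand: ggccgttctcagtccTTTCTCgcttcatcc
Malat1, chr19:5802658-5802687, minus strand: ctccgggctctgcgtCaggcattcaggcag

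A run of at least 5 C or T letters from the first transcribed base, read on the gene's own strand, was present at 3 of these 7 start sites (42.9%), namely the second site of *Gas5*, *Snhg8* and *Snhg12*. The same run was found at 1457 of all 32851 start sites in the table (4.44%), at 18 of 375 start sites of protein-coding snoRNA hosts (4.80%) and at 2 of 12 start sites of other lncRNA hosts (16.7%). When the first letter also had to be C, as in the classical 5′ TOP, 2 of the 7 sites and 823 of all sites (2.51%) qualified. *Snhg6* and *Neat1* are named here without a sequence.

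The 8 genes lie on 5 chromosomes of GRCm38.p6. *Gas5* spans chr1:161034601-161038539 with 8 annotated snoRNA genes inside it, and it overlaps the protein-coding gene *Zbtb37*. *Snhg1* spans chr19:8723487-8726326 and also holds 8 snoRNA genes, *Snhg12* spans chr4:132308678-132311024 and holds 4, and *Snhg11* spans chr2:158375713-158386474 and holds 2. *Snhg6* (chr1:9942025-9944118, inside which lies *Snord87*) and *Snhg8* (chr3:123507552-123508336, with *Snora24*) hold 1 each. *Snhg6* overlaps *Mcmdc2*, so counts of *Gas5* and *Snhg6* could include reads of a neighbour, since the use of strand in counting is not given in the sources used here. *Malat1* (chr19:5795690-5802672) and *Neat1* (chr19:5824708-5845480) are neighbours on chromosome 19 and hold none.

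RNA-seq libraries held 18504094 to 22592406 counts. Ribo-seq libraries were less even, from 30081796 to 35853227 counts in Ctrl, with 10973699 to 32954317 for F-cKO and 13764136 to 21725348 for M-cKO. The 8 lncRNAs together took 0.0666% to 0.0966% of the counts in an RNA-seq library and 0.0671% to 0.298% in a Ribo-seq library.

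The targeted genes were examined first. *Fto* was at 10.8, 11.2 and 8.37 FPKM (fragments normalised to transcript length and library size) in Ctrl and at 3.26, 7.56 and 2.43 in F-cKO RNA-seq, so the RNA-seq library labelled F-cKO replicate 2 lay close to the lowest control. In Ribo-seq, *Fto* was at 17.6 to 25.9 RPKM (the same unit for reads) in Ctrl and at 2.11 to 4.04 in F-cKO. *Mettl3* was higher, not lower, in M-cKO RNA-seq, at 8.61, 7.82 and 8.34 FPKM against 5.84, 6.43 and 5.07 in Ctrl, whereas its footprints fell in all 3 M-cKO libraries, from 9.16, 9.25 and 9.93 RPKM to 6.78, 6.02 and 6.40. A gene total also counts the exons that the deletion leaves in place, so the *Mettl3* RNA value does not check the genotype. Among marker lists, the summed level of ganglionic eminence genes such as *Dlx2* and *Gad1* was 85.9 to 87.1 FPKM in Ctrl, against 82.3 to 113 for F-cKO and 121 to 164 for M-cKO, and that of Emx1-lineage genes such as *Pax6* and *Neurod6* was 541 to 586 in Ctrl and 669 to 690 in each knockout. Pan-neuronal genes summed to 1583 to 1787, 1299 to 1514 and 1438 to 1577 FPKM in the same order, and choroid plexus genes to 70.1 to 809, 276 to 397 and 437 to 595. Endothelial genes summed to 45.5 to 49.4 FPKM in Ctrl, above the 33.4 to 38.7 of F-cKO and overlapping the 37.3 to 52.7 of M-cKO. Meningeal genes likewise summed to 10.5 to 20.3 in Ctrl, above the 2.35 to 8.98 of F-cKO and within the 5.32 to 28.6 of M-cKO. Erythroid genes (475 to 878 in Ctrl, 364 to 515 in F-cKO, 489 to 727 in M-cKO) and microglial genes (9.66 to 13.7, 7.75 to 10.7 and 8.54 to 14.1) overlapped. No gene of these lists was at 0 in all libraries, and the part of these shifts in the results below was not tested.

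*Malat1* was the most abundant of the 8 in control cortex, at 55.5 ± 5.77 FPKM (SD, n = 3), which gave it rank 891 among all genes. *Gas5* followed at 42.2 ± 1.36 and *Snhg6* at 41.2 ± 1.85 FPKM, and the libraries of these 2 hosts overlapped. *Snhg8* was at 25.6 ± 0.749 FPKM. *Snhg1* (12.2 ± 0.399) and *Snhg12* (11.6 ± 0.896) overlapped each other and lay above *Snhg11* at 7.17 ± 0.556 FPKM. *Neat1* was far below the rest, at 0.190 ± 0.0288 FPKM, and had rank 18523, while 13574 genes reached 1 FPKM. This unit depends on the transcript length used, and *Neat1* spans 20773 bases with 2 annotated transcripts. In counts, *Neat1* was at 73 to 93 per Ctrl library, against 419 to 492 for *Snhg8*. The 8 lncRNAs thus covered a wide span of levels, with the 2 nuclear transcripts at its opposite ends.

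The order was different among ribosome footprints. *Malat1* again led in Ctrl, at 116 ± 20.8 RPKM (SD, n = 3), followed by *Gas5* at 25.4 ± 2.22, *Snhg6* at 16.4 ± 0.885 and *Snhg1* at 12.4 ± 0.547. *Snhg12* (6.33 ± 0.341), *Snhg8* (3.91 ± 0.856), *Snhg11* (0.710 ± 0.129) and *Neat1* (0.107 ± 0.0505) came after, and no neighbours in this order overlapped. *Snhg8*, which lay above *Snhg1* and *Snhg12* by RNA, therefore lay below both by footprints.

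**Figure D1:**
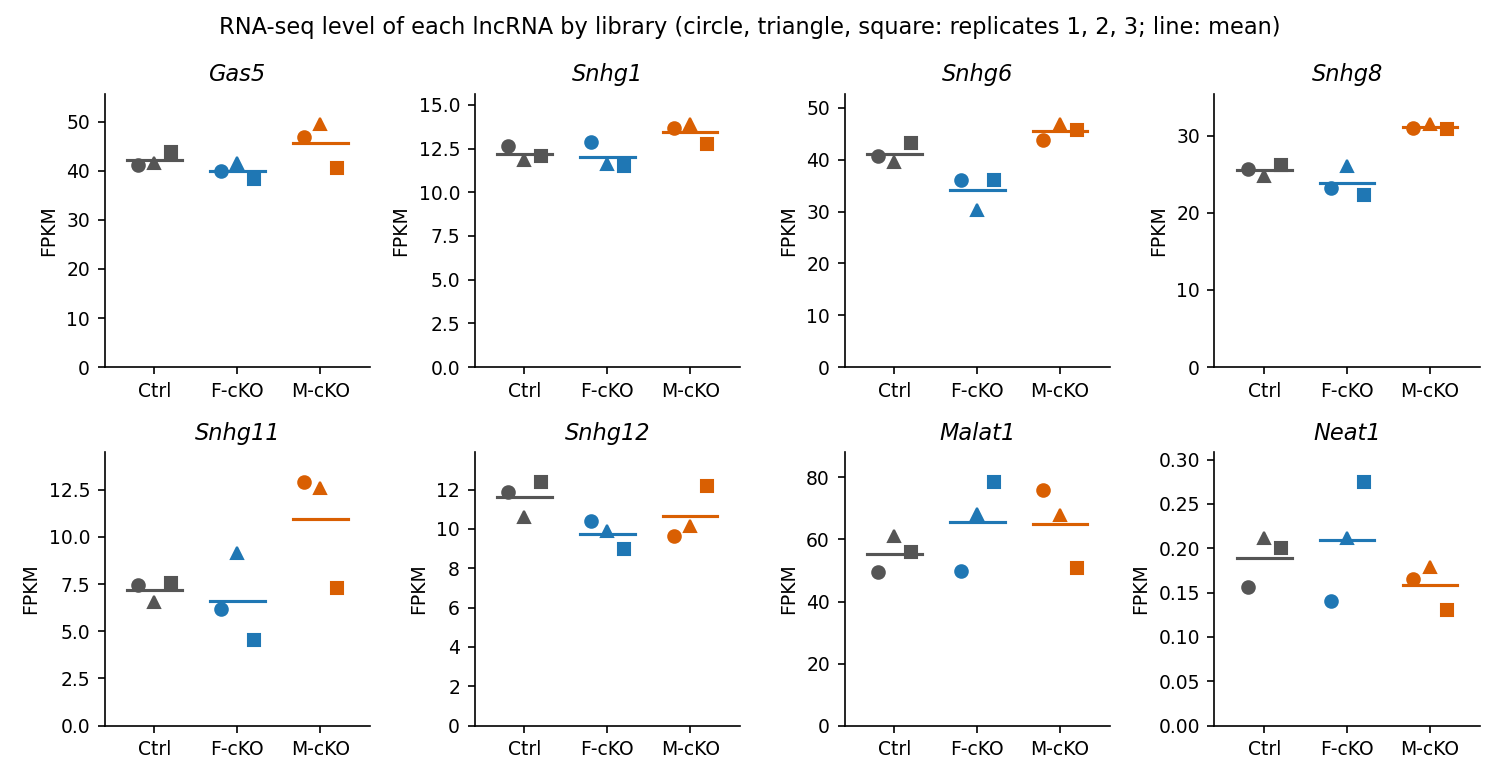
RNA-seq level (FPKM, linear axis from 0) of each lncRNA in the 3 libraries of Ctrl, F-cKO and M-cKO, with the group mean as a line. *Snhg6* lies lower in the 3 F-cKO libraries (30.3 to 36.1) than in Ctrl, *Snhg8* lies higher in the 3 M-cKO libraries (30.9 to 31.5), and *Snhg11* is high in 2 of 3 M-cKO libraries.

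*Snhg6*, a host whose snoRNA guides the modification of ribosomal RNA, was the only one of the 8 called in F-cKO RNA-seq, beside 21.1% of all 16944 genes tested (9.57% in the lower direction). Its level was 40.7, 39.7 and 43.3 FPKM in Ctrl and 36.1, 30.3 and 36.0 in F-cKO. All 3 F-cKO libraries lay below all 3 controls. The log2 fold change was -0.28 ± 0.0851 (SE, n = 3 per group, Benjamini-Hochberg adjusted p = 0.0431, quasi-likelihood test of edgeR). Leaving out the library labelled F-cKO replicate 2, whose *Fto* level was near control, gave -0.20 (edgeR adjusted p = 0.146), and leaving out Ctrl replicate 1, 2 or 3 gave edgeR adjusted p of 0.101, 0.0695 and 0.137.

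*Snhg12*, which hosts the snoRNAs *Snora16a*, *Snora44*, *Snora61* and *Snord99*, was at 11.9, 10.6 and 12.4 FPKM in Ctrl and at 10.4, 9.91 and 8.96 in F-cKO. The F-cKO libraries lay below the controls, as was so for 20.7% of all genes, and the difference missed the threshold, at -0.26 ± 0.0934 (SE, edgeR adjusted p = 0.0748). *Malat1* was at 49.5, 61.0 and 56.0 FPKM in Ctrl and at 50.0, 68.3 and 78.4 in F-cKO, overlapping groups with a log2 fold change of 0.23 ± 0.145 (SE, edgeR adjusted p = 0.284). It was 0.40 without F-cKO replicate 1 (edgeR adjusted p = 0.0215) and 0.08 without F-cKO replicate 3 (0.700), and with no filter on low counts it was called (0.0131). The other 5 lncRNAs had log2 fold changes between -0.13 and 0.13, with overlapping libraries. The median of the 8 was -0.10, and that of all genes tested was -0.01.

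In M-cKO cortices, 2 of the 8 rose and none fell, beside 29.6% of all 16968 genes tested (15.5% higher). *Snhg8*, the host of *Snora24*, was at 25.7, 24.8 and 26.2 FPKM in Ctrl and at 31.0, 31.5 and 30.9 in M-cKO. The M-cKO libraries were tightly grouped above every control. The log2 fold change was 0.28 ± 0.0798 (SE, n = 3 per group, Benjamini-Hochberg adjusted p = 0.0231, quasi-likelihood test of edgeR). Without Ctrl replicate 1 or 2, or M-cKO replicate 1 or 2, edgeR adjusted p rose to between 0.0630 and 0.0669.

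*Snhg11*, a host that is enriched in neurons, was at 7.44, 6.52 and 7.53 FPKM in Ctrl and at 12.9, 12.6 and 7.30 in M-cKO. M-cKO replicates 1 and 2 were well above the controls and M-cKO replicate 3 lay among them. The log2 fold change was 0.60 ± 0.169 (SE, edgeR adjusted p = 0.0209), and it was 0.83 without M-cKO replicate 3 (edgeR adjusted p = 0.000118). The call was lost without Ctrl replicate 1 (edgeR adjusted p = 0.0535), M-cKO replicate 1 (0.0660) or M-cKO replicate 2 (0.0912), with DESeq2 (0.0746) and with all 9 RNA-seq libraries in the fit (0.0650). M-cKO replicate 3 was also the M-cKO library with the lowest sum of ganglionic eminence markers, 121 FPKM against 150 and 164 in the others. It was the lowest of the 3 for Emx1-lineage genes as well, and the highest for the other marker lists. In F-cKO replicates 1, 2 and 3 the eminence sums were 113, 92.3 and 82.3 FPKM, beside *Snhg11* at 6.20, 9.15 and 4.52 FPKM. The part of any of these cells in the *Snhg11* level was not tested.

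*Snhg1* was at 12.6, 11.9 and 12.1 FPKM in Ctrl and at 13.7, 13.9 and 12.8 in M-cKO, above every control as in 22.6% of all genes, and did not pass the test (log2 fold change 0.13 ± 0.0730, SE, edgeR adjusted p = 0.205). *Gas5*, named for its rise in growth-arrested cells, was at 41.2, 41.5 and 43.7 FPKM in Ctrl and at 46.8, 49.5 and 40.6 in M-cKO, with M-cKO replicate 3 below the controls. *Snhg6*, at 43.9 to 46.9 FPKM in M-cKO, had a log2 fold change of 0.13 ± 0.0690 (SE, edgeR adjusted p = 0.170), and *Snhg12*, at 9.65 to 12.2, one of -0.13 ± 0.105 (0.380). *Malat1* was at 76.1, 68.0 and 50.7 FPKM in M-cKO, and this group overlapped Ctrl (log2 fold change 0.22 ± 0.126, SE, edgeR adjusted p = 0.227). Without M-cKO replicate 3, *Gas5* and *Malat1* passed the threshold, with edgeR adjusted p of 0.0359 and 0.00494. *Neat1*, read from 60 to 123 counts per RNA-seq library, was at 0.157 to 0.211 FPKM in Ctrl, 0.131 to 0.179 in M-cKO and 0.140 to 0.274 in F-cKO, all overlapping. The median log2 fold change of the 8 in M-cKO was 0.13, that of all genes tested -0.01, and that of the 833 lncRNA genes tested -0.18, of which 47 rose and 132 fell.

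The 2 knockouts differed from each other at *Snhg6* and *Snhg8*, which were called in the direct comparison beside 27.4% of 16802 genes (13.1% higher in M-cKO). *Snhg6* was higher in M-cKO, at 43.9, 46.9 and 45.7 FPKM, than in F-cKO by 0.40 ± 0.0840 on the log2 scale (SE, n = 3 per group, Benjamini-Hochberg adjusted p = 0.00644, quasi-likelihood test of edgeR). *Snhg8*, at 23.2, 26.0 and 22.4 FPKM in F-cKO, was higher in M-cKO by 0.37 ± 0.0901 (SE, edgeR adjusted p = 0.0124). In both, all M-cKO libraries lay above all F-cKO libraries, as in 21.2% of all genes, and both calls held in all 12 alternatives. *Snhg11* differed by 0.71 ± 0.244 (SE) with an edgeR adjusted p of 0.0510, and F-cKO libraries at 6.20, 9.15 and 4.52 FPKM overlapped those of M-cKO. It was called in 5 of 12 alternatives, among them the fit of all 9 libraries (edgeR adjusted p = 0.0329) and those without F-cKO replicate 2 (log2 difference 1.02, edgeR adjusted p = 0.0182) or M-cKO replicate 3 (0.95, edgeR adjusted p = 0.0203).

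**Figure D2:**
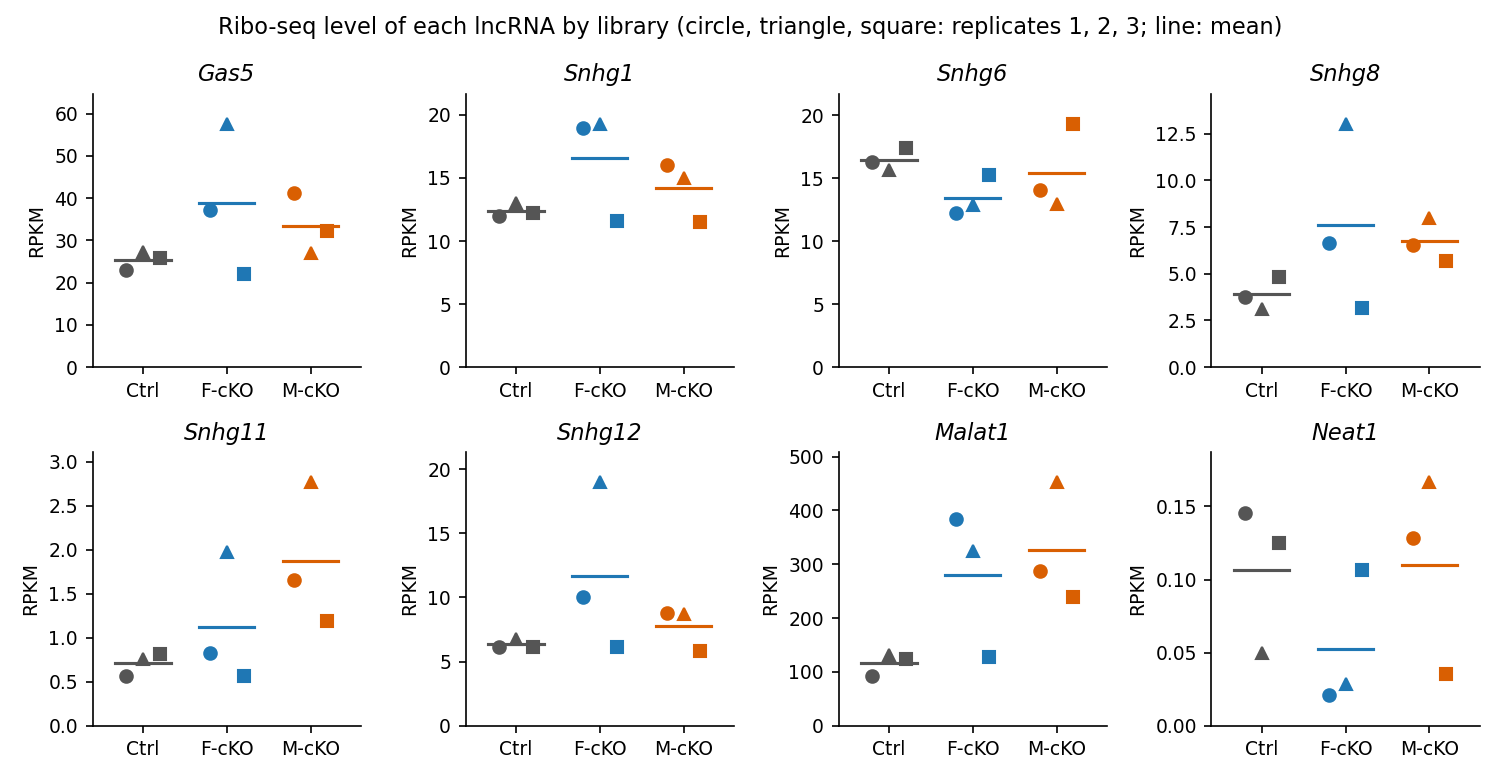
Ribo-seq level (RPKM, linear axis from 0) of each lncRNA in the 3 libraries of Ctrl, F-cKO and M-cKO, with the group mean as a line. *Malat1* lies at 92.1 to 131 in Ctrl and at 239 to 452 in M-cKO, and F-cKO replicate 3 stays at or just below control level for *Malat1*, *Gas5*, *Snhg1*, *Snhg8* and *Snhg12*.

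In Ribo-seq the F-cKO libraries disagreed among themselves. No lncRNA of the 8 and none of the 14335 genes tested (0%) was called by edgeR's quasi-likelihood test. At an unadjusted p under 0.05, 227 genes were higher and 91 lower, and DESeq2 called 5 higher and 1 lower, none of them among the 8. *Malat1* was at 92.1, 131 and 124 RPKM in Ctrl and at 384, 325 and 128 in F-cKO. F-cKO replicates 1 and 2 stood far above the controls and F-cKO replicate 3, the deepest of the group, lay within the control range. The log2 fold change was 1.33 ± 0.417 (SE, n = 3 per group, edgeR adjusted p = 0.730).

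The F-cKO libraries were also spread widely for the hosts. *Gas5* was at 22.9, 27.3 and 25.8 RPKM in Ctrl and at 37.1, 57.6 and 22.0 in F-cKO. *Snhg12* was at 6.15, 6.73 and 6.13 RPKM in Ctrl and at 9.998, 19.0 and 6.10 in F-cKO. *Snhg8* was at 3.78, 3.12 and 4.82 RPKM in Ctrl and at 6.65, 13.0 and 3.15 in F-cKO. In each of these 3 hosts, F-cKO replicate 2 was the highest and replicate 1 the next, both above the controls, and replicate 3 was not above them all. *Snhg6* was the exception, at 12.2, 12.9 and 15.3 RPKM in F-cKO against 16.3, 15.6 and 17.4 in Ctrl, all below the controls as in 4.21% of all genes, and a log2 fold change of -0.24 ± 0.193 (SE, edgeR adjusted p = 0.731). The median log2 fold change of the 8 was 0.72, and that of all genes was 0.05.

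In M-cKO cortices, *Malat1* and *Snhg11* footprints rose, 2 of 8 beside 14.6% of 14314 genes tested (7.13% higher). *Malat1* was at 288, 452 and 239 RPKM in M-cKO. Every M-cKO library was above every control, by a log2 fold change of 1.52 ± 0.271 (SE, n = 3 per group, 2.88-fold, Benjamini-Hochberg adjusted p = 0.0167, quasi-likelihood test of edgeR). With 1 replicate left out the log2 fold change was 1.19 to 1.72, and the call was lost without Ctrl replicate 1, 2 or 3 (edgeR adjusted p = 0.0658, 0.0695 and 0.0542).

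*Snhg11* was at 0.564, 0.755 and 0.810 RPKM in Ctrl and at 1.66, 2.76 and 1.19 in M-cKO. The groups did not overlap, and the log2 fold change was 1.42 ± 0.338 (SE, 2.68-fold, edgeR adjusted p = 0.0339). This call was lost without any 1 of the 3 Ctrl libraries and without M-cKO replicate 1 (edgeR adjusted p = 0.0612), and with limma on RPKM (adjusted p = 0.0873). When all 9 Ribo-seq libraries were fitted together, so that the spread of F-cKO entered, neither was called (*Malat1*, edgeR adjusted p = 0.138, and *Snhg11*, 0.218). *Snhg11* was at 0.563 to 0.810 RPKM in the 4 deepest Ribo-seq libraries, which were the 3 controls and F-cKO replicate 3, and at 0.828 to 2.76 in the 5 shallower ones, and the part of depth in its difference was not tested.

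*Snhg8* was at 6.55, 8.01 and 5.71 RPKM in M-cKO, above the 3 controls, with a log2 fold change of 0.80 ± 0.257 (SE, edgeR adjusted p = 0.0723). *Gas5* was at 41.2, 27.1 and 32.1 RPKM in M-cKO, 1 library falling just inside the control range on this scale, with a log2 fold change of 0.41 ± 0.140 (SE, edgeR adjusted p = 0.0873). In CPM after TMM scaling, 4 of the 8 (*Gas5*, *Snhg8*, *Snhg11* and *Malat1*) had all M-cKO libraries above all controls, as had 18.4% of all genes. DESeq2 called these 4, beside 3107 genes in all (1602 higher and 1505 lower). *Snhg1* was at 12.02, 13.0 and 12.2 RPKM in Ctrl and at 16.0, 15.03 and 11.5 in M-cKO, and *Snhg6* was at 14.0, 12.9 and 19.3 in M-cKO, both overlapping. *Snhg12* was at 8.77, 8.67 and 5.80 RPKM in M-cKO, 2 libraries above the controls and 1 below them, with a log2 fold change of 0.30 ± 0.189 (SE, edgeR adjusted p = 0.292) that became 0.49 and was called without M-cKO replicate 3 (edgeR adjusted p = 0.0465). *Neat1*, with 6 to 90 counts per Ribo-seq library, was at 0.0357 to 0.166 RPKM in M-cKO and 0.0497 to 0.146 in Ctrl. No difference was called (log2 fold change 0.04 ± 0.601, SE, edgeR adjusted p = 0.969).

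M-cKO and F-cKO footprints were not told apart for any of the 8. No gene of 14262 (0%) was called by edgeR's quasi-likelihood test, with 710 higher and 444 lower at an unadjusted p under 0.05, and DESeq2 called 172 higher and 28 lower, none of the 8. For *Malat1* the difference was 0.22 on the log2 scale, with a 95% interval from -0.69 to 1.12 on the same scale.

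*Malat1*, *Snhg8* and *Snhg11* in Ribo-seq moved together with depth and with the shares of small nuclear and small nucleolar RNAs. The 3 Ctrl libraries and F-cKO replicate 3 were the deepest, with 30081796 counts or more, and had the lowest *Malat1* levels, and the 5 shallower libraries had the highest. The same 4 libraries were the lowest for *Snhg8*, at 3.12 to 4.82 RPKM against 5.71 to 13.0 in the other 5, and for *Snhg11*. The share of counts in small nuclear RNA genes was 0.115% to 0.146% in Ctrl, 0.368% to 0.558% in M-cKO and 0.211% to 0.370% in F-cKO, and that in snoRNA genes was 1.09% to 1.43%, 2.10% to 3.46% and 1.54% to 3.14% in the same order. The miRNA share did not follow in F-cKO, at 1.01% to 2.31% in Ctrl, 2.15% to 6.73% in M-cKO and 1.05% to 1.48% in F-cKO, and lncRNA genes other than *Malat1* took 0.329% to 0.388%, 0.321% to 0.742% and 0.281% to 0.471%. Protein-coding genes took 91.3% to 92.6% of counts in Ctrl, 83.4% to 90.0% in M-cKO and 89.6% to 92.3% in F-cKO. *Malat1* made up 13.9% to 18.9% of all lncRNA counts in Ctrl, 27.3% to 31.2% in M-cKO and 21.0% to 38.1% in F-cKO, so its share also differed between Ctrl and both knockouts within the lncRNA class. The part of depth and of these RNA classes in the differences of *Malat1*, *Snhg8* and *Snhg11* was not tested.

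**Figure D3:**
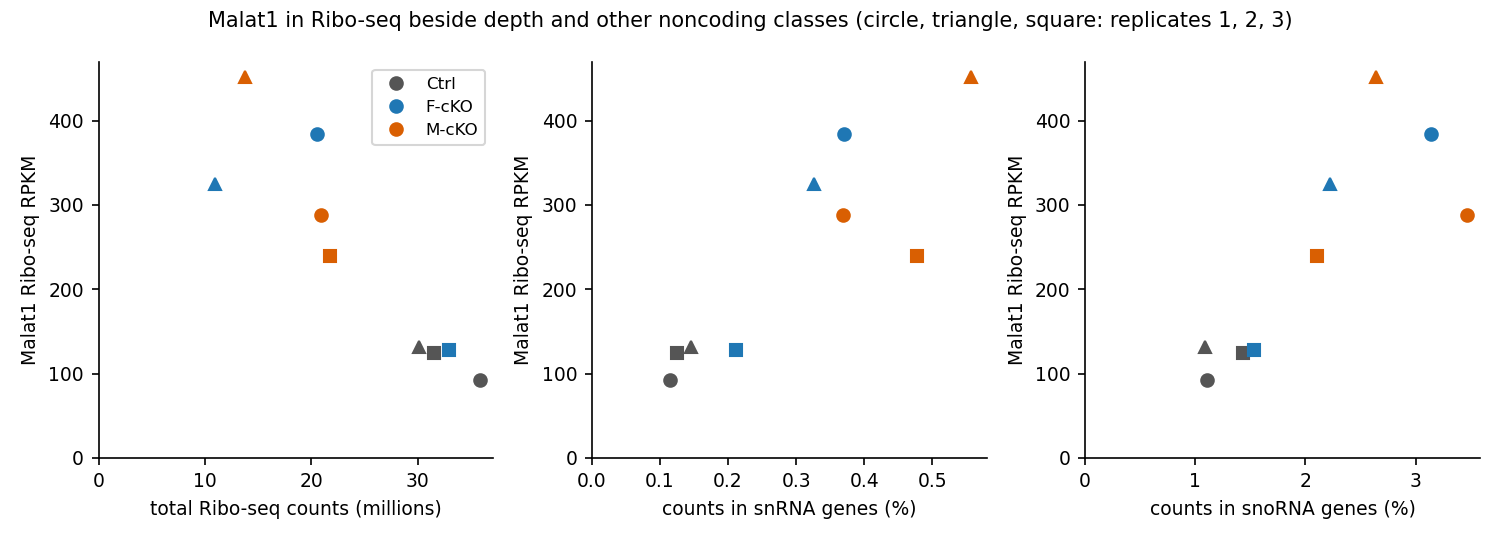
*Malat1* Ribo-seq level (RPKM) of the 9 libraries against the total counts, the share of counts in small nuclear RNA genes and the share in snoRNA genes. The 3 Ctrl libraries and F-cKO replicate 3 lie together at 92.1 to 131 RPKM with the most counts and the lowest shares of small nuclear RNA, and the other 5 libraries lie at 239 to 452.

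Few of the snoRNAs inside the hosts could be followed. RefSeq places 24 snoRNA genes inside the 6 hosts, 9 of which were matched to a gene of the files, while the other 15 were not analysed here. Of the 9, 7 were listed at 0 in all 18 libraries. How reads shared by a host and a snoRNA inside it were counted is not given in the sources used here. A 0 therefore does not show absence of the snoRNA. *Snord87*, inside *Snhg6*, was at 42133, 32983 and 30332 RPKM in Ctrl Ribo-seq, at 223114, 10429 and 75896 in F-cKO and at 155092, 71339 and 66834 in M-cKO, while RNA-seq held 0 to 6 counts of it per library. All M-cKO libraries lay above the controls (log2 fold change 1.48 ± 0.316, SE, edgeR adjusted p = 0.0263), and the F-cKO libraries spanned both sides of them. The host *Snhg6* did not follow, with a Ribo-seq log2 fold change of -0.08 ± 0.161 in M-cKO (SE, edgeR adjusted p = 0.757). *Gm25129*, inside *Snhg11*, was at 0.273 to 4.33 RPKM.

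Translational efficiency (TE) was taken as Ribo-seq RPKM over RNA-seq FPKM, the ratio of group means, and for a noncoding RNA it is a ratio of levels only, since the gene totals carry no reading frame. In Ctrl the ratio was 2.09 for *Malat1*, 1.02 for *Snhg1*, 0.601 for *Gas5*, 0.563 for *Neat1*, 0.545 for *Snhg12*, 0.398 for *Snhg6*, 0.153 for *Snhg8* and 0.0991 for *Snhg11*. The median was 0.863 over protein-coding genes and 0.331 over 390 lncRNA genes. *Malat1*, a nuclear RNA, thus had rank 8 of 390 lncRNAs in Ctrl, with rank 3 in F-cKO and rank 6 in M-cKO, above every host, and *Snhg8* and *Snhg11* lay below the lncRNA median.

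TE of *Malat1* was 1.86, 2.15 and 2.22 for the same-numbered libraries of Ctrl, 7.69, 4.76 and 1.63 for F-cKO and 3.79, 6.65 and 4.72 for M-cKO. The M-cKO values were all above Ctrl, and the F-cKO values lay on both sides. *Malat1* was the only one of the 8 called in M-cKO, beside 3.84% of 13208 genes (1.42% higher), with a log2 change of TE of 1.31 ± 0.317 (SE, 2.48-fold, n = 3 per group and assay, adjusted p = 0.0398, edgeR, quasi-likelihood test of the interaction of assay and genotype, Benjamini-Hochberg). Over all genes 188 rose and 319 fell (37.1% higher), a split that turned to 249 and 156 (61.5% higher) when libraries of both assays were scaled together, and to 213 and 187 (53.3%) when scaled on protein-coding genes, and *Malat1* stayed higher under both. The *Malat1* call was lost in 10 of 19 alternatives, among them the fit of all 18 libraries (edgeR adjusted p = 0.340) and each fit that left out 1 RNA-seq library or Ribo-seq Ctrl replicate 1 or 2.

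The hosts' TE did not pass the test in M-cKO. Their log2 changes were 0.80 ± 0.391 for *Snhg11*, 0.52 ± 0.229 for *Snhg8*, 0.43 ± 0.220 for *Snhg12*, 0.30 ± 0.165 for *Gas5*, 0.07 ± 0.162 for *Snhg1* and -0.21 ± 0.165 for *Snhg6* (SE, edgeR adjusted p from 0.204 to 0.828). Without Ribo-seq M-cKO replicate 3, *Snhg12* was called at 0.62 (edgeR adjusted p = 0.0352). The median of the 8 was 0.37, and that of all genes was -0.05. In F-cKO, none of the 8 and none of 13225 genes (0%) was called by edgeR's quasi-likelihood test, with 509 higher and 583 lower at an unadjusted p under 0.05, and DESeq2 called 7 higher and 56 lower, none of the 8. For *Snhg12* the log2 change of TE in F-cKO was 1.22 ± 0.493 (SE, edgeR adjusted p = 0.578), and 0.57 without Ribo-seq F-cKO replicate 2. For *Malat1* the log2 change of TE in F-cKO was 1.10 ± 0.483 (SE, edgeR adjusted p = 0.578). The F-cKO median of the 8 was 0.81, and that of all genes was 0.03. Between M-cKO and F-cKO none of 13162 genes (0%) was called by edgeR, with 219 higher and 278 lower at an unadjusted p under 0.05, and DESeq2 called 14 higher and 3 lower, none of the 8.

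**Figure D4:**
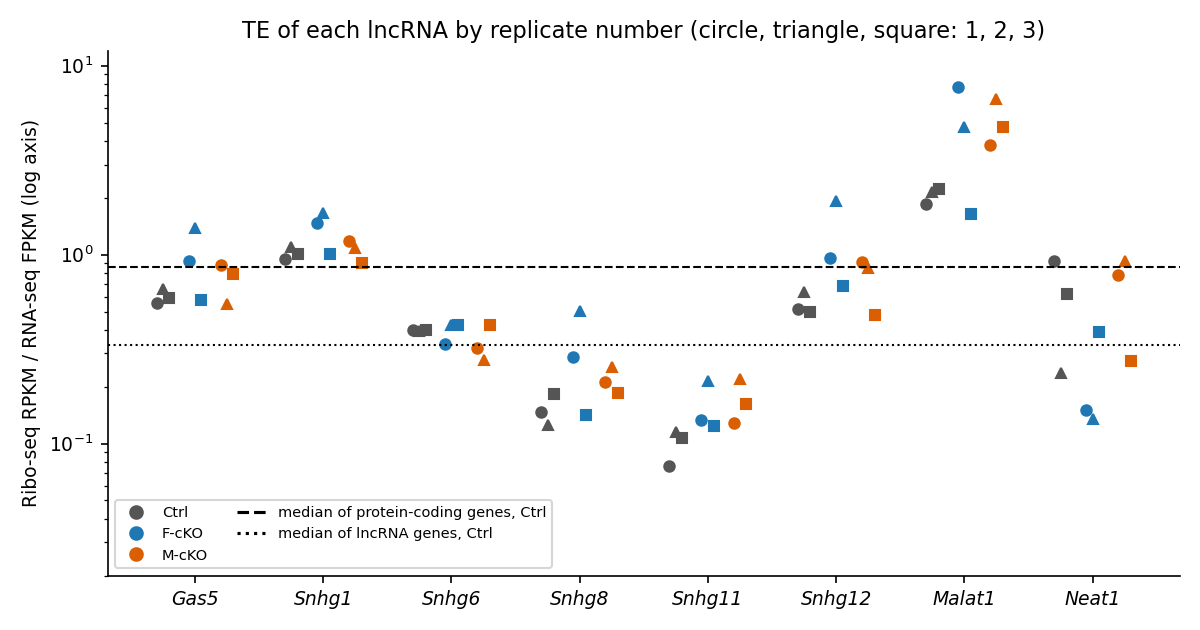
TE (Ribo-seq RPKM over RNA-seq FPKM, log axis) of each lncRNA for the libraries of the same replicate number, with the Ctrl medians of protein-coding genes (0.863) and lncRNA genes (0.331) as lines. *Malat1* lies above both lines in every pair, and *Snhg8* and *Snhg11* lie below the protein-coding median in every pair.

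**Figure D5:**
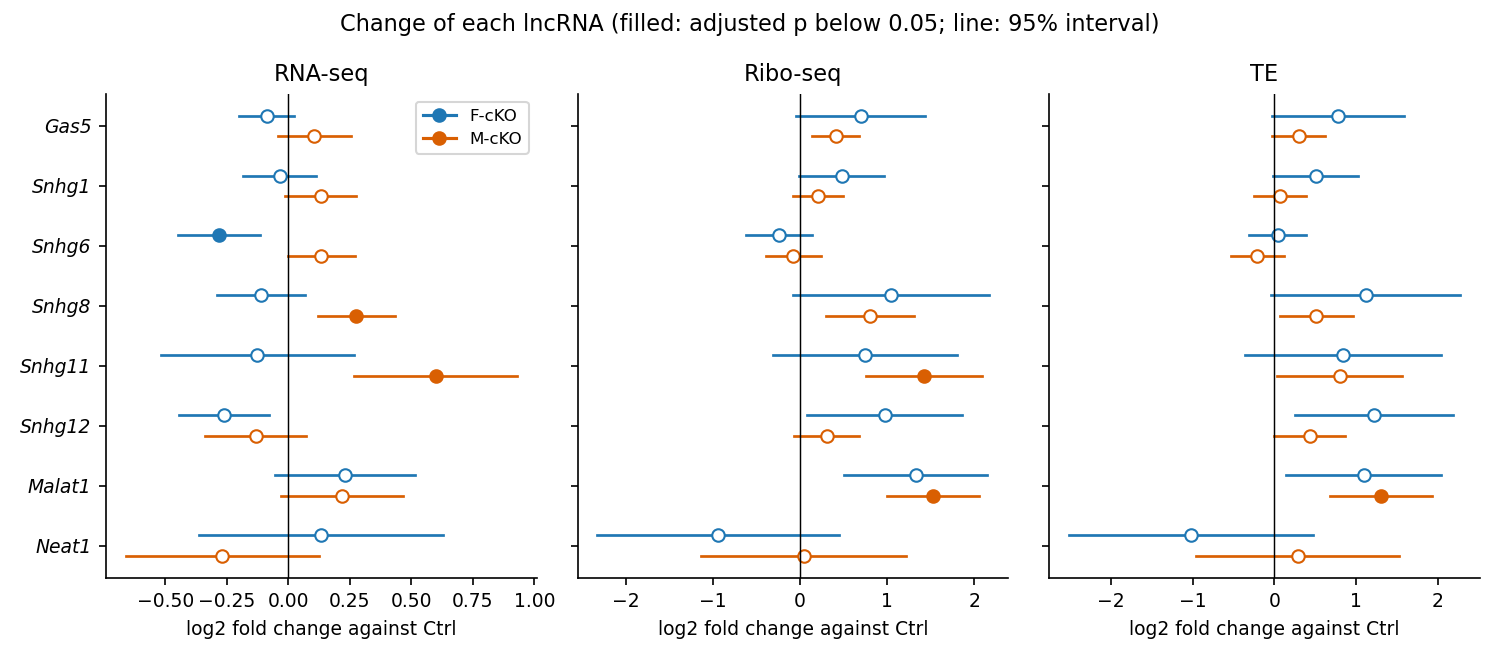
Log2 fold change against Ctrl with its 95% interval for each lncRNA in RNA-seq, Ribo-seq and TE (the horizontal scales differ). Filled points passed the test: *Snhg6* in F-cKO RNA-seq, *Snhg8* and *Snhg11* in M-cKO RNA-seq, *Malat1* and *Snhg11* in M-cKO Ribo-seq, and *Malat1* in M-cKO TE.

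Other lncRNA hosts of snoRNAs were called 2 of 10 times in F-cKO RNA-seq, beside 21.1% of all genes, 4 of 10 times in M-cKO, beside 29.6%, and 5 of 10 times between M-cKO and F-cKO, beside 27.4%. The 2 called in F-cKO fell, *Snhg20* (log2 fold change -0.38 ± 0.103, SE) and *Epb41l4aos* (-0.37 ± 0.0993), and the median of the list was -0.18. In M-cKO RNA-seq the same 2 genes rose, *Snhg20* by 0.38 ± 0.111 and *Epb41l4aos* by 0.29 ± 0.0833, together with *Zfas1* (0.29 ± 0.0678), while *Snhg14*, the host of the Prader-Willi snoRNA clusters, fell by 0.52 ± 0.112, and the list median was 0.13. In M-cKO Ribo-seq *Dancr* rose by 1.94 ± 0.193 (SE, edgeR adjusted p = 0.00401), the only 1 of 10 to change, beside 14.6% of all genes. Its RNA had a log2 fold change of -0.20 ± 0.120 (SE, edgeR adjusted p = 0.250), and its TE rose by 2.14 ± 0.226 (SE, edgeR adjusted p = 0.000545), as did that of *Snhg5*, by 0.91 ± 0.238, 2 of 9 beside 1.42% of all genes.

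Protein-coding genes that host snoRNAs, such as factors of ribosome assembly and translation, formed the longest list. It held every protein-coding gene with a snoRNA gene within its span, without a check of strand, so some may not be hosts. In F-cKO 66 rose and 30 fell of 325, beside 11.5% and 9.57% of all genes, among them *Top2a*, the topoisomerase of dividing cells (0.98 ± 0.118), *Mpdz*, a scaffold of cell junctions (0.60 ± 0.0773), *Ckap5*, which lengthens microtubules (0.53 ± 0.0636), and *Cnot1*, the scaffold of the deadenylase complex (0.42 ± 0.0510). In M-cKO 50 rose and 44 fell of 326, close to the 29.6% of all genes, with *Zbed3* higher (0.82 ± 0.0867) and *Dlg2*, a synaptic scaffold (-1.003 ± 0.108), *Hopx*, a marker of radial glia (-0.94 ± 0.106), and *Rbmx*, a splicing factor (-0.60 ± 0.0700), lower. In M-cKO Ribo-seq 12 rose and 42 fell of 319, beside 7.13% and 7.5% of all genes, and the median of the list was -0.10, that of all genes -0.00. For TE 2 rose and 16 fell of 316, beside 1.42% and 2.42% of all genes, *Odc1*, the first enzyme of polyamine synthesis, by -0.85 ± 0.129.

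Proteins that bind these RNAs were followed as fixed lists. Of 17 snoRNA-protein complex genes, 3 rose and 1 fell in F-cKO RNA-seq, a count close to the 21.1% of all genes, with *Nop10*, a core protein of H/ACA complexes, at -0.38 ± 0.0836 and *Tcof1*, a nucleolar factor of ribosomal RNA transcription, at 0.30 ± 0.0658. In M-cKO 4 of 17 rose and none fell, by edgeR, beside 29.6% of all genes called in either direction, namely *Shq1* (0.62 ± 0.107) and *Nhp2* (0.48 ± 0.0624), an assembly factor and a core protein of H/ACA complexes, with *Tcof1* and *Gar1*. The medians of this list were 0.06 and 0.02.

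Of 18 paraspeckle and nuclear speckle proteins, 6 rose in F-cKO RNA-seq, beside 11.5% of all genes, and none fell, by edgeR, while *Neat1* and *Malat1* themselves did not pass the test. Those that rose included *Tardbp* (0.40 ± 0.0597, SE), *Rbm14* (0.35 ± 0.0633) and *Nono* (0.28 ± 0.0644), with *Sfpq* and *Son*. In M-cKO only *Matr3* was called, at -0.31 ± 0.0914, beside 29.6% of all genes, and in the direct comparison 8 of 18 were lower in M-cKO than in F-cKO, beside 27.4% of all genes called in either direction. In M-cKO Ribo-seq 1 of 18 fell, *Tardbp*, by -0.43 ± 0.0981, beside 7.5% of all genes. The RNA-seq median of the list was 0.15 for F-cKO, with 0.03 for M-cKO.

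Genes of nonsense-mediated decay, the pathway that degrades spliced host RNAs, changed in 6 of 19 cases in F-cKO RNA-seq, all of them upwards, beside 11.5% of all genes, with *Gspt1*, a translation termination factor, at 0.45 ± 0.0631 and *Upf2*, a core factor, at 0.31 ± 0.0764. In M-cKO 4 rose and 2 fell, a count close to the 29.6% of all genes, with *Smg8*, a regulator of the Smg1 kinase, at 0.82 ± 0.0822 and *Upf3b*, which links decay to the exon junction, at -0.33 ± 0.0687. TE of the same 2 genes moved the other way in M-cKO, *Smg8* by -0.48 ± 0.125 and *Upf3b* by 0.73 ± 0.161. The RNA-seq median of this list was 0.13 for F-cKO, with 0.11 for M-cKO.

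Among other lncRNAs that act in the nucleus, *Mirg*, a maternally expressed miRNA host, fell (-0.58 ± 0.114) and *Rmst*, a neural lncRNA, rose (0.94 ± 0.293) in F-cKO RNA-seq, 2 of 10 beside 21.1% of all genes. In M-cKO 3 of 9 fell and none rose, by edgeR, close to the 29.6% of all genes called, namely *Kcnq1ot1*, the imprinted antisense transcript (-1.08 ± 0.174), *Miat* (-0.60 ± 0.110) and *Peg13* (-0.22 ± 0.0666). In M-cKO Ribo-seq *Rmst* rose (2.23 ± 0.287) and *Peg13* fell (-1.14 ± 0.164), 2 of 10 beside 14.6% of all genes, and TE rose for *Rmst* (1.92 ± 0.374) and *Kcnq1ot1* (1.97 ± 0.389) and fell for *Peg13* (-0.92 ± 0.1803). These were 3 of 9 called for TE, beside 3.84% of all genes.

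Across the 9 RNA-seq libraries, the genes whose log2(FPKM + 1) followed each lncRNA most closely, of 13513 with a mean of at least 1 FPKM, were as follows, as a description over libraries that share depth and genotype. *Snhg8* was followed by *Alyref2* (Pearson r = 0.983), *Msl3l2* (0.979) and *Zmynd19* (0.975). *Snhg6* was followed by *Nip7* (0.971), a factor of ribosome assembly, *Dnajc25* (0.968) and *Mrpl36* (0.959), a mitochondrial ribosomal protein. *Snhg11* was followed by 2 genes of neuronal signalling, *Gng4* (0.953) and *Kcnc1* (0.951). *Snhg1* was nearest to *Vkorc1l1* (0.980), *Snhg12* to *Hagh* (0.969), *Gas5* to *Atxn1* (0.954), *Malat1* to *D930016D06Rik* (0.945) and *Neat1* to *Zfhx2* (0.980). No lncRNA of the 8 was among the 3 nearest genes of another.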

How the data were processed

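RNA-seq and Ribo-seq libraries of E15.5 cortex were grouped by the labels. The authors aligned RNA-seq reads (150 bp, paired) with HISAT2 2.0.5 and Ribo-seq reads with TopHat2 to mm10 and counted Ribo-seq reads with HTSeq. They deposited raw read counts per gene for both assays, FPKM for RNA-seq and RPKM for Ribo-seq, with no pooling of replicates. Deposited Ribo-seq counts were left blank for 40490 genes in 8 of 9 libraries, none of them among the 8 lncRNAs. Counts were tested with edgeR 4.0.16 (R 4.3.3) after filterByExpr (minimum count 10, total 15) and TMM scaling, with Benjamini-Hochberg adjustment over all genes tested and a threshold of 0.05. TE was tested as the interaction of assay and genotype, whereas the study used RiboDiff. DESeq2 1.42.0 and limma 3.58.1 on log2(RPKM + 0.1) were alternatives. On simulated counts, edgeR called 45 of 100 genes changed 2-fold in M-cKO Ribo-seq and 1 of 100 in F-cKO Ribo-seq, and 77 and 68 in RNA-seq. Named list genes were at most 4 per list and comparison, those called with the smallest adjusted p. Some items that this rule or the annotation would name are not reported here. For each lncRNA the 3 most alike genes were found. The 8 lncRNAs and the lists were chosen with earlier results of these data known. snoRNA genes were assigned to a host by lying within its span in RefSeq, without a check of strand. Of the 24 inside the 6 lncRNA hosts, 9 were matched to the files by symbol. Intervals are 95%.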

Additional observations from a re-analysis of the deposited data

Results flagged for a closer look

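A total of 3 results was singled out because 2 groups differed in a test of the difference itself. *Snhg6* RNA was 0.40 higher (log2 scale) in M-cKO than in F-cKO, having a log2 fold change against Ctrl of -0.28 in F-cKO and 0.13 in M-cKO. *Snhg8* RNA was 0.37 higher in M-cKO than in F-cKO, with -0.11 and 0.28 against the same Ctrl libraries. In these comparisons all 3 libraries of M-cKO lay above all 3 of F-cKO. The change of *Malat1* in M-cKO against Ctrl differed between Ribo-seq and RNA-seq by 1.31, being 1.52 in footprints and 0.22 in RNA. The shares of snoRNA and small nuclear RNA counts were also higher in all 3 M-cKO footprint libraries than in Ctrl, and their part in this difference was not tested.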

How the results depend on the processing

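Of the refits of single lncRNAs, 967 kept their direction and side of the threshold, 35 lost a call, 16 gained one and 36 changed sign, the last all at lncRNAs that were not called. The number of the 8 lncRNAs called in F-cKO RNA-seq (1) became 2 with no filter on low counts and 0 with the replicate block. In M-cKO RNA-seq (2) it became 1 with DESeq2, 1 with all 9 libraries in the fit, 1 with the replicate block and 3 with no filter, and between M-cKO and F-cKO (2) it became 4 with no filter and 3, with *Snhg11*, both with all 9 libraries and with the replicate block. In M-cKO Ribo-seq (2) it became 4 with DESeq2, 0 with all 9 libraries and 1 with limma on RPKM. For TE in M-cKO (1) it became 0 with no filter and 0 with all 18 libraries. Leaving out each replicate in turn gave 0 to 2 in F-cKO RNA-seq, 0 to 4 in M-cKO RNA-seq, 2 to 4 between them, 0 to 3 in M-cKO Ribo-seq, 0 to 2 for M-cKO TE and 0 to 0 in the other 4 comparisons. The TE of *Neat1* in F-cKO (0.250) moved to 0.493 with a pseudocount of 0.1 and was 0.142 without replicate 3. Over all genes, M-cKO Ribo-seq calls went from 2093 to 38 with all 9 libraries and 1319 with the block. DESeq2 gave 3107 there and limma on RPKM 689. F-cKO RNA-seq calls went from 3576 to 2130 with the block and 4430 with no filter. M-cKO RNA-seq calls went from 5024 to 4760 with DESeq2, 4864 with all 9 libraries, 4451 with the block and 5530 with no filter. Calls between M-cKO and F-cKO RNA-seq went from 4599 to 5272 with no filter, 4977 with all 9 libraries and 3712 with the block. M-cKO TE calls went from 507 to 1128 with DESeq2, 178 with the block, 480 with no filter and 8 with all 18 libraries. With 1 library left out, F-cKO RNA-seq calls were 1543 (without Ctrl replicate 3) to 3474, calls between M-cKO and F-cKO RNA-seq 2830 (without F-cKO replicate 2) to 4566, M-cKO Ribo-seq calls 177 (without Ctrl replicate 2), 390 (Ctrl replicate 1) and 461 (Ctrl replicate 3) to 2543, and M-cKO TE calls 74 (without RNA-seq Ctrl replicate 3) to 1239 (without Ribo-seq M-cKO replicate 3), so the shares of all genes called move as well. Of the refits of list counts, 915 stayed within 1.5 times and 177 moved further. In F-cKO RNA-seq, calls among protein-coding hosts (96) were 46 (without Ctrl replicate 3) to 81 with 1 library left out and 60 with the block, those among nuclear speckle and paraspeckle proteins (6) 2 (without Ctrl replicate 3) to 7, and those among decay genes (6) 2 (without Ctrl replicate 1 or F-cKO replicate 2) to 5. In M-cKO, calls among protein-coding hosts were 67 to 93 in RNA-seq (94), 2 (without Ctrl replicate 2) to 58 in Ribo-seq (54), with 0 when all 9 libraries were fitted, and 1 to 39 for TE (18). The causes were not tested. Scaling the libraries of both assays together was chosen after seeing the data and gave *Malat1* TE in M-cKO 1.38 (edgeR adjusted p = 0.0347).

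The labels do not say whether replicate numbers pair the libraries, and with 3 libraries per group the check below could not exclude pairing. Within each assay, same-numbered deviations from group means correlated between -0.278 and 0.163, and in no comparison were all 3 above 0.1. Same-numbered libraries of RNA-seq and Ribo-seq were not checked against each other. With the replicate block, *Snhg6* in F-cKO RNA-seq had an edgeR adjusted p of 0.0564 and *Snhg8* in M-cKO RNA-seq of 0.0518, *Snhg11* became called between M-cKO and F-cKO (0.00563), and the sign turned at *Neat1* in M-cKO Ribo-seq (-0.0506) and *Snhg8* in M-cKO against F-cKO Ribo-seq (0.0293), neither called.

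The remaining sign changes were at uncalled lncRNAs when 1 replicate was left out. In RNA-seq the log2 fold change ran from -0.43 to 0.0879 for *Snhg11* and -0.12 to 0.36 for *Neat1* in F-cKO, and -0.18 to 0.14 for *Malat1* between M-cKO and F-cKO. In Ribo-seq it ran from -0.0638 to 1.16 for *Snhg11* in F-cKO, and from -0.26 to 0.0297 for *Snhg6* and -0.40 to 0.49 for *Neat1* in M-cKO (limma, -0.0003). Between M-cKO and F-cKO Ribo-seq it ran from -0.63 to 0.24 for *Gas5*, -0.0004 to 0.27 for *Snhg6*, -0.67 to 0.54 for *Snhg8* (limma, 0.0399), -1.04 to 0.0133 for *Snhg12* and -0.19 to 0.44 for *Malat1*. TE ran from -0.0385 to 0.15 for *Snhg6* in F-cKO, -0.14 to 0.75 for *Neat1* in M-cKO and, between M-cKO and F-cKO, -0.81 to 0.0602 for *Gas5*, -1.04 to 0.18 for *Snhg8*, -0.43 to 0.79 for *Snhg11* (DESeq2, -0.0244, RLE scaling, -0.0037, no filter, -0.012) and -0.16 to 0.46 for *Malat1*. *Neat1* had the fewest Ribo-seq counts of the 8, with 6 to 90 per library.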
